A study of Mus musculus with 6 samples.

Results

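Embryonic and adult globin genes were measured in megakaryocytes, which shed platelets, cultured from mouse fetal livers at E13.5. One group (p45-/-) had no functional copy of p45, which Nfe2 encodes and which pairs with a small Maf protein to form the transcription factor NF-E2. The other group (WT) carried the normal gene. Both groups held 3 cultures of the C57BL/6 strain, each on its own single-colour array, and the design text describes the experiments as independent. The labels give the source as cultured megakaryocytes, but the extraction protocol names whole embryos as the RNA source, and the 2 statements were not reconciled. Whether red cells were removed, the purity of the cultures and the build of the mutant allele are not given in the sources used here.

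Members were chosen by symbol: 8 genes were listed, and a probe belonged to the set if its RefSeq accession mapped to a listed symbol. Of 41174 non-control probes, 5 did so, for 4 genes: the embryonic genes Hba-x, Hbb-y and Hbb-bh1, with 1, 1 and 2 probes, and the adult gene Hba-a1, with 1 probe. Hba-a2, Hbb-b1, Hbb-b2 and Ahsp were matched to no probe through the gene table and are not analysed here. The adult beta side is therefore represented by 4 probes of the accession that the table assigns to Hbb-bt. The table places Hbb-bt and Hbb-bs in the adult beta position of the C57BL/6 reference chromosome. All 9 probes were well above background on all 6 arrays, passed the filter on dim probes and were unsaturated on every array.

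Haemoglobin is assembled from alpha-type and beta-type chains whose genes lie in separate clusters and are switched during development. Primitive erythroid cells, which arise in the yolk sac, make the zeta chain from Hba-x and the embryonic beta-type chains from Hbb-y and Hbb-bh1. Definitive erythroid cells, made first in the fetal liver, mainly use the adult alpha genes Hba-a1 and Hba-a2 and the adult beta genes. Distant enhancers drive each cluster, among them the beta locus control region, which holds binding sites for NF-E2. In the gene table the beta genes lie on chromosome 7 in the order Hbb-y, Hbb-bh1, Hbb-bh2, Hbb-bs and Hbb-bt. The alpha cluster on chromosome 11 runs from Hba-x through Hba-a1, Hbq1b and Hba-a2 to Hbq1a.

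The stretches below, 150 bases that end at the base before the start site, show how the promoters of an embryonic and an adult gene of each cluster differ. They were taken from RefSeq (GRCm38.p6) and are written 5′ to 3′ on the strand of the gene. Capitals mark matches to the motifs named after the sequences, on either strand except for ATAAA, which was read as written.
Hbb-y, chr7:103853208-103853357, minus strand: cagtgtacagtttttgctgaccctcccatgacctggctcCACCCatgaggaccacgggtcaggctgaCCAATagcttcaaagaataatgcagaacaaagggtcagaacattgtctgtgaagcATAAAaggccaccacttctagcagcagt
Hbb-bt, chr7:103813924-103814073, minus strand: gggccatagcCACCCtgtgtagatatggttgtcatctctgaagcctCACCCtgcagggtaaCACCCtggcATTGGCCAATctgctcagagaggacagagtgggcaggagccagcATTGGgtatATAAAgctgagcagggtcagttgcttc
Hba-x, chr11:32276450-32276599, plus strand: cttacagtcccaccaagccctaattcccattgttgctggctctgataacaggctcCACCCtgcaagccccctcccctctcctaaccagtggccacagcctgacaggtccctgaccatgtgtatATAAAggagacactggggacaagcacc
Hba-a1, chr11:32283522-32283671, plus strand: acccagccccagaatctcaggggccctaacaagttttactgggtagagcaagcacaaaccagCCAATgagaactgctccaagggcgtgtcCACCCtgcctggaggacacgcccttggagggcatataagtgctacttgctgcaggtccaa
CACCC, part of the motif bound by KLF1, occurred 3 times in the Hbb-bt stretch and 1 time in each of the others, and 37.4% of all 32851 promoter windows of this length held it. CCAAT was in 3 of the 4 stretches and not in that of Hba-x, against 24.5% of all windows. ATAAA lay 28 bases before the start site in Hbb-y and 27 bases before it in Hbb-bt and Hba-x, and 15.1% of all windows held it. TGAGTCA, a core bound by NF-E2 and by AP-1 factors, and AGATAA, a form of the site that GATA factors bind, were not among the letters of these 4 windows. TGAGTCA was in 2.84% and AGATAA in 5.65% of all windows. Other forms of the GATA site were not searched, and the Hba-x stretch holds the letters tgataa. Copies were compared without gaps over longer windows than those printed, which also end at the base before the start site. Those of Hba-a1 and Hba-a2, with a shift of 3 bases, had the same base at 247 of 247 positions. Those of Hbb-bt and Hbb-bs, with a shift of 1, did at 127 of 249. Without gaps, a base gained or lost in 1 gene lowers such a count, and the transcripts were not compared. Probe sequences were not used here, so the Hba-a1 probe cannot be assigned to 1 alpha gene, nor the Hbb-bt probes to Hbb-bt alone.

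Levels are the log2 processed signal minus the 75th percentile of the same array. That percentile was 135 on p45-/- array 1 and 339 to 589 on the others, and p45-/- array 1 also correlated least with the other arrays across probes, at 0.79 to 0.89, against 0.94 to 0.98 among those. Of 15 megakaryocyte markers, 15 were well above background on all 6 arrays. Nfe2 itself differed by -0.17 (SE 0.56, limma adjusted p = 0.922), and by 0.17 with quantile normalization. The build of the mutant allele is not given and the position of the probe was not used, so this value does not check the labels. Over all 23958 probes tested, limma without a block called 0 in either direction (0%), with 612 higher and 857 lower at an unadjusted p under 0.05. With the replicate number as a block it called 30 higher (0.125%) and 43 lower (0.179%). Of the 9 globin probes, 0 were called in either fit, and 2, both of Hbb-bh1, were higher at an unadjusted p under 0.05 without the block, as were 2.55% of all probes tested. With the block 5 of the 9 were, both of Hbb-bh1, that of Hbb-y, and A_51_P374468 and A_52_P213909 of Hbb-bt, against 12.8% of all probes. In cultures, more cells of a type and more RNA per cell cannot be told apart.

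The embryonic beta-type genes had the largest differences among the globin probes, in the direction of p45-/-. Hbb-bh1 was about 8 times as high in group mean, and Hbb-y about 4 times. For the zeta gene Hba-x and the adult genes the difference was less than the SD of the p45-/- arrays. At least 4-fold higher in group mean were 3 of the 9 probes, both of Hbb-bh1 and that of Hbb-y, against 3.53% of all probes tested. The count was 3 with quantile normalization and 2, without Hbb-y, with normexp, median scaling or no scaling. Higher in p45-/- in all 3 same-numbered pairs were 5 of the 9, against 20.8% of all probes.

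Hbb-bh1, which encodes the beta h1 chain of primitive red cells, was read by 2 probes. On the probe A_52_P305876 the log2 level was 2.04, 4.79 and 4.21 across p45-/- arrays 1 to 3, with 0.11, 0.47 and 1.35 across WT arrays 1 to 3. Each p45-/- array was above each WT array, and p45-/- array 1 was the lowest of its group. The p45-/- mean was 3.68 ± 1.45 and the WT mean 0.64 ± 0.64 (SD, n = 3 each). The log2 difference was 3.04 (SE 0.75, 95% interval 1.26 to 4.82), an 8.22-fold difference, with a limma adjusted p of 0.503, and 0.0702 with the replicate number as a block. The second probe, A_51_P179672, followed it across the arrays (Pearson r = 0.9997 over 6 arrays, a description) and differed by 2.96 in log2 (SE 0.75), at an adjusted p of 0.515 in limma and of 0.0729 under the block. Its log2 levels were 2.04, 4.78 and 4.14 in p45-/- and 0.12, 0.51 and 1.45 in WT. The 2 probes share the transcript and the arrays, so they are not independent measurements. Groups that do not overlap, with p45-/- higher, were found for 4.47% of all probes tested.

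The separation of Hbb-bh1 depended on how the arrays were scaled. The unscaled signal of A_52_P305876 was 555, 11290 and 10915 across p45-/- arrays 1 to 3, with 365, 809 and 1461 across WT arrays 1 to 3. There, p45-/- array 1 lay below WT arrays 2 and 3. The groups overlapped without scaling and with median scaling, and did not overlap with the 75th percentile, quantile normalization or normexp. The log2 difference was 2.44 without scaling, 2.53 with median scaling, 2.81 with normexp and 3.19 with quantile normalization. Weighting the arrays, where p45-/- array 1 received 0.11, was the setting that brought both probes past the threshold: the difference was 3.41 (SE 0.40, limma adjusted p = 0.0175) on A_52_P305876 and 3.29 (adjusted p = 0.0201) on A_51_P179672. That fit called 1.03% of all probes as higher. Without p45-/- replicate 1 the difference of A_52_P305876 was 3.86 (adjusted p = 0.214).

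Hbb-y, which encodes the embryonic epsilon-y chain, was read by 1 probe. Its log2 level was 2.99, 6.28 and 5.14 across p45-/- arrays 1 to 3, with 1.34, 2.98 and 4.03 across WT arrays 1 to 3. The groups overlapped: p45-/- array 1 lay between WT arrays 2 and 3. The mean was 4.80 ± 1.67 (SD, n = 3) against 2.78 ± 1.35 (SD, n = 3), a log2 difference of 2.02 with SE 0.99 and a 95% interval of -0.33 to 4.38. The limma adjusted p was 0.709, and 0.115 under the block. In unscaled signal the p45-/- arrays read 1077, 31721 and 20734 and the WT arrays 861, 4603 and 9362, again with replicate 1 the lowest of each group. In every same-numbered pair the p45-/- array was higher, by 1.65, 3.30 and 1.11 for numbers 1, 2 and 3. The group difference was 1.84 with normexp, 1.51 with median scaling, 1.42 without scaling and 2.31 with quantile normalization. Without p45-/- replicate 2 the difference was 1.28, and without WT replicate 1 it was 1.30.

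Hba-x encodes the zeta chain. Its log2 level was 1.03, 2.95 and 1.85 across p45-/- arrays 1 to 3, with 0.70, 1.60 and 3.01 across WT arrays 1 to 3. The highest and the lowest value of the 6 were both on WT arrays. The groups differed by 0.17 in log2 (SE 0.72, 95% interval from -1.53 to 1.88), at a limma adjusted p of 0.940, and the same-numbered pairs differed by 0.33, 1.35 and -1.17. Its sign was not stable: it was -0.34 with median scaling and -0.43 without scaling. Its unscaled signal was 277, 3137 and 2120 in p45-/- and 551, 1764 and 4639 in WT, so replicate 1 was the lowest of each group. Across the 6 arrays Hbb-y correlated with A_52_P305876 of Hbb-bh1 at r = 0.92 and with Hba-x at 0.79, while Hba-x and A_52_P305876 were at 0.52. With the Hba-a1 probe Hba-x was at -0.68 and Hbb-y at -0.52. These describe 6 arrays that share their scaling and an outlying array.

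**Figure D1:**
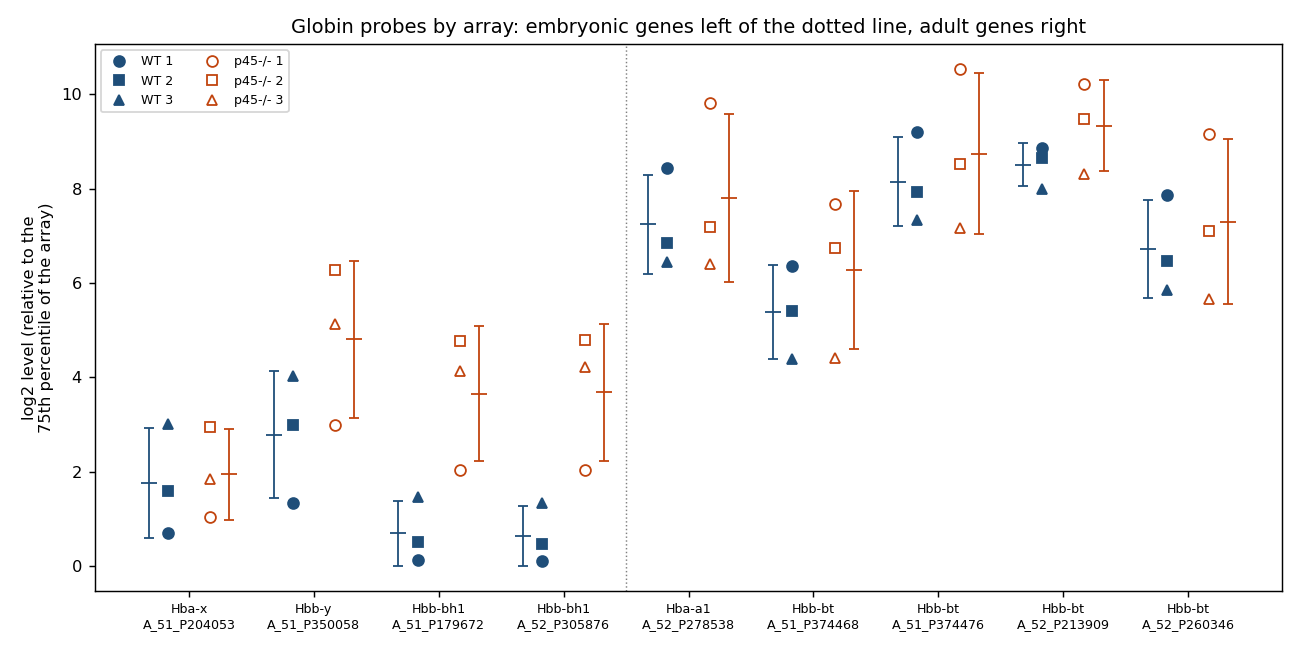
Log2 level of each globin probe relative to the 75th percentile of its array (vertical axis) for the 3 WT arrays (filled) and the 3 p45-/- arrays (open), with symbols by replicate number and bars for the group mean ± SD. Both Hbb-bh1 probes show p45-/- arrays at 2.04 to 4.79 above WT arrays at 0.11 to 1.45, while the adult probes on the right overlap between groups and are highest on p45-/- array 1.

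The adult alpha probe, Hba-a1, had a log2 level of 9.81, 7.19 and 6.41 across p45-/- arrays 1 to 3, with 8.43, 6.85 and 6.45 across WT arrays 1 to 3. The replicate 1 arrays were the highest of both groups, and the groups overlapped. The groups differed by 0.56 in log2 (SE 0.95, 95% interval from -1.71 to 2.83), at a limma adjusted p of 0.847. The difference was -0.044 without scaling and -0.45 without p45-/- replicate 1. In unscaled signal the same-numbered arrays were close: 121853 and 117199 for number 1, 59541 and 67519 for number 2, and 49948 and 50183 for number 3, with p45-/- given before WT.

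The adult beta probes of Hbb-bt gave log2 differences of 0.57 to 0.89, with limma adjusted p from 0.709 to 0.840 and, with the block, from 0.225 to 0.450. On the brightest of them, A_52_P213909, the log2 level was 10.22, 9.48 and 8.32 across p45-/- arrays 1 to 3, with 8.87, 8.66 and 8.0 across WT arrays 1 to 3. The p45-/- array was the higher in each same-numbered pair, by 1.35, 0.82 and 0.32, yet the groups overlapped. The difference was 0.83 (SE 0.53, 95% interval -0.44 to 2.10), and 0.32 with median scaling and 0.23 without scaling. On A_51_P374476 the p45-/- levels were 10.54, 8.53 and 7.16 and the WT levels 9.19, 7.93 and 7.33, so the order within number 3 was the opposite. The difference there was 0.59 (SE 0.90). A_52_P260346 had the same order, with 9.15, 7.10 and 5.66 in p45-/- and 7.88, 6.46 and 5.85 in WT. A_51_P374468 read 7.68, 6.74 and 4.42 in p45-/- and 6.36, 5.41 and 4.38 in WT, and its groups overlapped through the low p45-/- array 3. Its difference of 0.89 was 0.38 with median scaling and 0.29 without scaling. Without p45-/- replicate 1 it was -0.31 on A_51_P374476 and -0.35 on A_52_P260346, and 0.39 on A_52_P213909.

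The 4 adult beta probes varied together across the arrays, but not fully. A_51_P374476 and A_52_P260346 had r = 0.9994, and both had r = 0.98 with the Hba-a1 probe. A_52_P213909 had r = 0.90 and 0.89 with these 2 beta probes and 0.96 with A_51_P374468. Its unscaled signal was 161253, 290738 and 188438 on p45-/- arrays 1, 2 and 3, highest on array 2, while A_51_P374476 was highest on array 1, at 201932, 150281 and 84440. Whether these probes read Hbb-bs or another beta gene to different degrees was not tested.

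**Figure D2:**
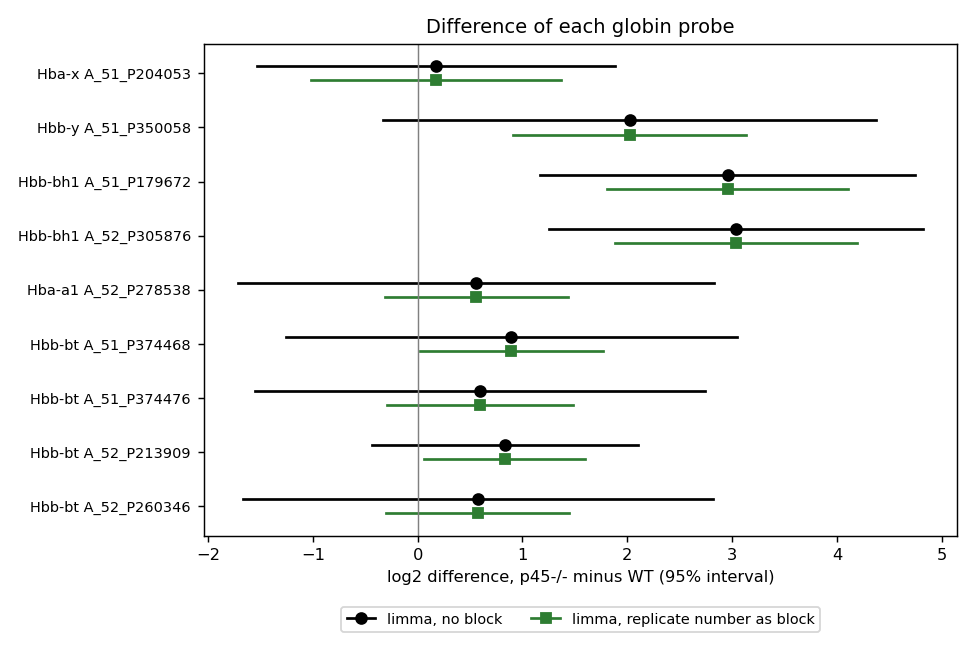
Log2 difference, p45-/- minus WT, of each globin probe with its 95% interval (horizontal axis), from limma without a block (circles) and with the replicate number as a block (squares). The intervals of both Hbb-bh1 probes lie above 0 in both fits, at 1.17 to 4.75 and 1.26 to 4.82 without the block, and those of Hba-x and Hba-a1 span 0 in both. The intervals are not adjusted for the number of probes.

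Embryonic and adult genes were then set against each other within each array, as a ratio, which is the same under any single scaling factor per array. The ratio of Hbb-bh1 to Hbb-bt (A_51_P179672 to A_52_P213909, the brightest probe of each), in log2 units from the WT mean, was -0.37, 3.11 and 3.64 across p45-/- arrays 1 to 3, with -0.93, -0.34 and 1.27 across WT arrays 1 to 3. The p45-/- array was the higher in each pair, but p45-/- array 1 lay just below WT array 2. The group difference was 2.13, a 4.37-fold difference (exact permutation test, two-sided, p = 0.3, where 0.1 is the smallest possible; adjusted over 3 ratios, p = 0.7). Treating the numbers as pairs, as in a replicate block, gave an exact p of 0.25, the smallest that 3 pairs allow. Without p45-/- replicate 1 the difference was 3.38, and without p45-/- replicate 3 it was 1.37.

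For Hbb-y to Hbb-bt the ratio was -1.50, 2.53 and 2.54 across p45-/- arrays 1 to 3, with -1.80, 0.05 and 1.75 across WT arrays 1 to 3. Number 1 was the lowest in both groups. The group difference was 1.19, a 2.28-fold difference (exact permutation p = 0.5, adjusted p = 0.7, and exact p = 0.25 with the numbers as pairs). It was 0.29 without WT replicate 1, 0.52 without p45-/- replicate 2 or p45-/- replicate 3, 2.07 without WT replicate 3 and 2.54 without p45-/- replicate 1. For Hba-x to Hba-a1 the ratio was -3.31, 1.23 and 0.92 on the p45-/- arrays and -2.26, 0.22 and 2.04 on the WT arrays. That difference was -0.39 (exact permutation p = 0.7, adjusted p = 0.7), and 1.07 without p45-/- replicate 1. No test of these ratios could pass 0.05 at this number of arrays. Along the replicate numbers the ratios of both groups varied by several log2 units.

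**Figure D3:**
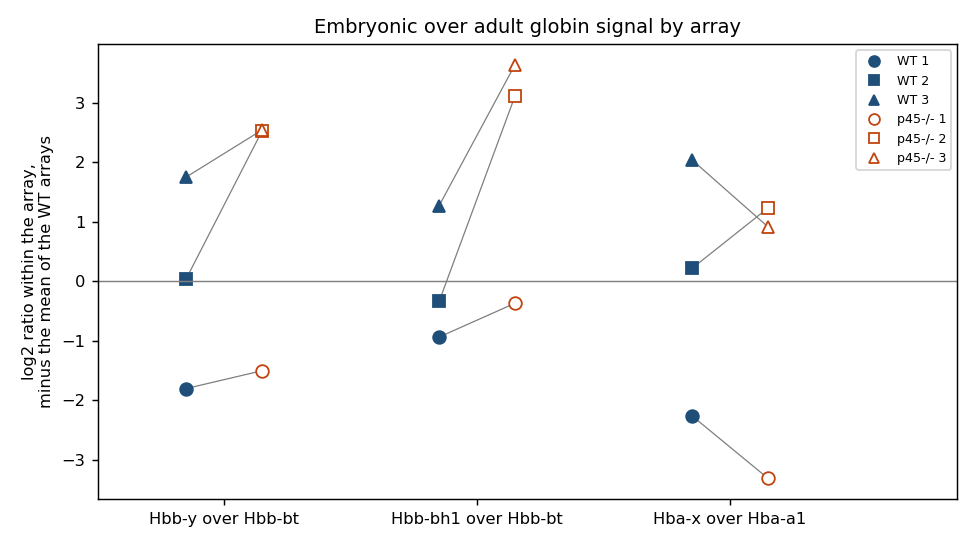
Log2 ratio of an embryonic to an adult globin probe within each array, minus the mean of the 3 WT arrays (vertical axis), for WT (filled) and p45-/- (open) arrays, with grey lines joining same-numbered arrays. All 3 lines go up from WT to p45-/- for Hbb-y and Hbb-bh1, while for Hba-x 1 goes up and 2 go down, and the replicate 1 arrays are the lowest of each group.

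The theta globin genes Hbq1a and Hbq1b, minor members of the alpha cluster, had log2 differences of -0.27 (SE 1.01) and -0.42 (SE 0.98), with limma adjusted p of 0.932 and 0.885. Hbq1a read -0.50, -3.27 and -3.80 across p45-/- arrays 1 to 3, with -0.78, -2.65 and -3.33 across WT arrays 1 to 3. Like the adult genes, it was highest on the replicate 1 array of each group. Of the globins outside the clusters, Ngb, a globin of neurons, differed by 0.92 (SE 0.57, adjusted p = 0.709) and Cygb, a globin of many tissues, by 0.84 (SE 0.72, adjusted p = 0.724). Mb, the muscle globin, was well above background on 0 of the 6 arrays.

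Known regulators of the globin genes were taken from a list of 52, of which 50 were matched and tested. In either fit 0 of them were called. Their median log2 difference was -0.26, against -0.09 over all probes tested, and 12 were higher and 38 lower in group mean. Of all probes tested, 10327 were higher and 13631 lower. The groups did not overlap for 1 higher gene and for 9 lower genes, where 4.47% and 8.95% of all probes did so. With quantile normalization 17 were higher and the median was -0.10, no different from the -0.10 of all probes. Median scaling left 3 higher and a median of -0.77, against -0.60 for all probes.

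The higher gene was Klf1, the erythroid factor that activates the adult beta gene. Its log2 level was 0.58, 1.21 and 0.61 across p45-/- arrays 1 to 3, with -0.39, -1.94 and -2.25 across WT arrays 1 to 3. The difference was 2.32 (SE 0.53, limma adjusted p = 0.464, and 0.104 with the block). Gata2, a progenitor factor that GATA1 replaces in erythroid cells, read 0.68, 1.49 and 1.51 in p45-/- and 2.58, 3.71 and 3.33 in WT. Its difference was -1.98 (SE 0.41, adjusted p = 0.407, and 0.0567 with the block).

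Mafg, a small Maf partner of p45, differed by -1.29 (SE 0.27, adjusted p = 0.407) and Myb, a progenitor factor, by -1.05 (SE 0.31, adjusted p = 0.641). Mbd2, a methyl-DNA binding protein, differed by -0.77, and Klf6, Lmo2 and Gatad2a by -0.91, -0.64 and -0.63, with adjusted p of 0.709 for these 4. These 8 genes kept their sign under each scaling tried. Bcl11a, a repressor of embryonic beta-type genes, is added for its role and not by the naming rule. It differed by 0.22 (SE 0.29, adjusted p = 0.803), and by -0.04, -0.29 and -0.38 with quantile normalization, median scaling and no scaling.

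Markers of red cells differed in the same direction as Hbb-bh1. Of 24 erythroid markers, 20 were higher in p45-/- with a median log2 difference of 1.19, against -0.09 over all probes tested. Their summed level, in units of the 75th percentile, was 202.9, 229.2 and 162.5 across p45-/- arrays 1 to 3, with 84.3, 115.8 and 112.0 across WT arrays 1 to 3. In these units each p45-/- array was above each WT array. Alas2, the first enzyme of haem synthesis in red cells, named here after its values were seen, made up 81.8, 73.4 and 25.2 of the p45-/- sums and 13.8, 1.59 and 0.80 of the WT sums. Without it the sums were 121.1, 155.7 and 137.3 against 70.5, 114.2 and 111.2, still without overlap in these units. The 75th percentile was lowest on p45-/- array 1, at 135 against 339 to 589 on the others. The separation of the sums depends on this scaling, and they were not taken with another. The log2 difference of Alas2 was 4.36 (SE 1.07, limma adjusted p = 0.503, and 0.0542 with the block). Of the 24, 0 were called without the block and 2 higher with it, Trim10 at 3.22 (limma adjusted p = 0.0389, and 0.240 without the block) and Ermap at 2.38 (adjusted p = 0.0481, and 0.682 without it). With median scaling 16 of the 24 were higher and the median was 0.68. All 24 were well above background on at least 2 arrays of each group. The part of red cell content in the globin values was not tested.

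Within the replicate numbers the embryonic globins and the red cell markers were not ordered alike. The median of the erythroid markers differed by 1.58, 1.10 and 0.86 in pairs 1, 2 and 3. Hbb-bh1 on A_52_P305876 differed by 1.93, 4.32 and 2.87 and the adult probe A_51_P374476 by 1.35, 0.60 and -0.17. Hbb-y differed by 1.65, 3.30 and 1.11, smallest in pair 3 like the erythroid median. Of the 5 adult probes 4 had their largest difference in pair 1, where Hbb-bh1 had its smallest. The exception was A_51_P374468, at 1.32, 1.33 and 0.04, with pair 2 level with pair 1. A scaling factor per array moves all differences of a pair by the same amount. The order of the pairs therefore depended on the scaling, for the erythroid markers as for the globin probes. The erythroid medians were not taken by pair with another scaling. In unscaled signal, p45-/- before WT, A_52_P213909 read 161253 and 158623 for number 1 and 290738 and 235988 for number 2. A_51_P374476 read 201932 and 198491 for number 1 and 150281 and 142566 for number 2. Hba-a1 went the other way, at 121853 and 117199 for number 1 and 59541 and 67519 for number 2. Pair 3 lay on its own slide, and with slide as a block the difference of A_52_P305876 had an adjusted p of 0.697.

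**Figure D4:**
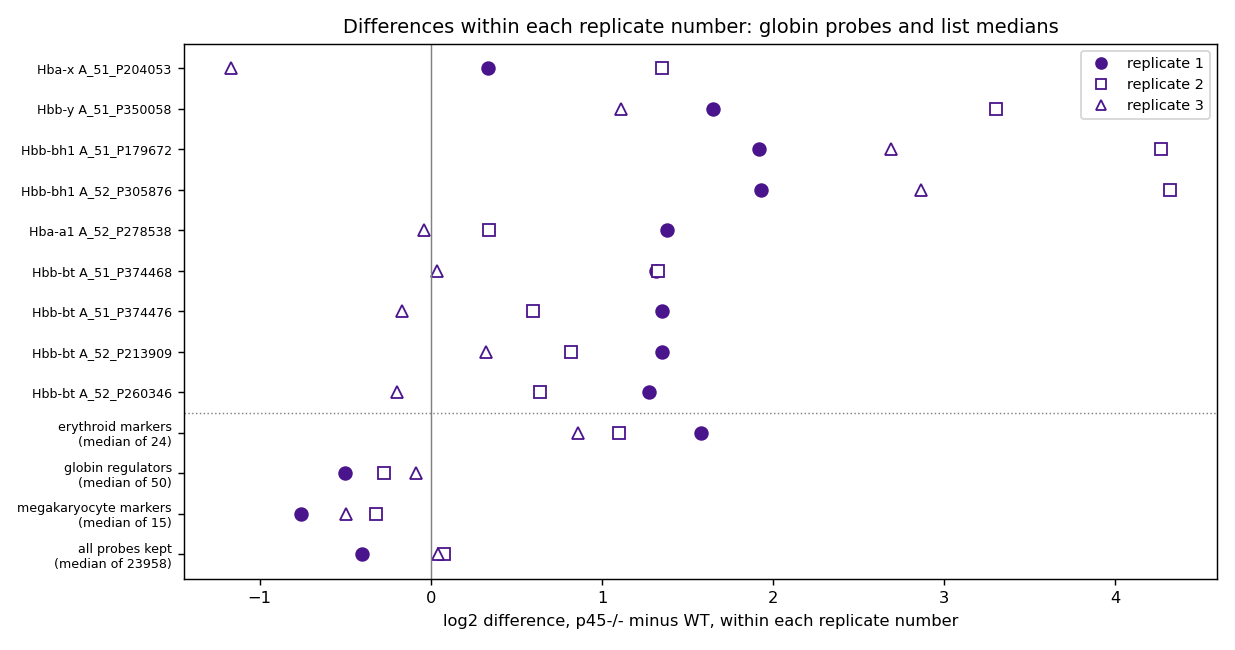
Log2 difference, p45-/- minus WT, within each replicate number (horizontal axis; filled circles number 1, open squares number 2, open triangles number 3) for the 9 globin probes and for the medians of 3 gene lists and of all probes. Hbb-bh1 is at 1.92 to 4.32 in all 3 pairs and the erythroid markers at 0.86 to 1.58, while adult globin probes run from -0.19 to 1.38.

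Markers of other cells were read beside these values. The megakaryocyte markers had a median log2 difference of -0.53, with 13 of 15 lower, where 13631 of all 23958 probes were lower. With quantile normalization the median was -0.21 and 11 of 15 were lower, and all probes had a median of -0.10. With median scaling it was -1.04 and 15 of 15 were lower. Under the block 1 was called lower, Selp at -2.83 (limma adjusted p = 0.0389), as were 0.179% of all probes. Gp5 differed by -1.32 (SE 0.82, adjusted p = 0.709). Of the hepatoblast markers, 9 of 9 tested were higher in group mean, among them Apob by 1.19 and Apoh by 1.27 (adjusted p = 0.709 for both), with a median of 0.93 and pair medians of -0.17, 1.34 and 1.87. The median was 0.33 for 9 macrophage markers, -0.14 for 6 mast cell markers and 0.52 for 10 stromal markers, and 0 genes of these 4 lists were called in either fit. The leading genes of these lists were Vcam1 at 1.10 and Mrc1 at 0.70 (macrophage), Fcer1a at 0.78 and Ms4a2 at -0.94 (mast cell), and Fbn1 at 0.98 and Acta2 at -0.81 (stromal), with a limma adjusted p of 0.709 for each. What part other cell types have in the globin values was not tested. Median scaling lowered the median of all probes to -0.60 and turned the macrophage median to -0.19. Quantile normalization made the macrophage median 0.60, with 9 of 9 higher.

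The genes whose level followed Hbb-y most closely over the 6 arrays, among 5979 genes with an SD of at least 0.5, were Pfn4, Hectd2, Wnk4, Camk1 and Dnaja4, with Pearson r from 0.98 to 0.9965. Wnk4 read -1.35, 1.82 and 1.02 across p45-/- arrays 1 to 3, with -2.16, -0.78 and -0.08 across WT arrays 1 to 3, so it too was lowest on the replicate 1 array of each group. Pfn4 was well above background on 2 of 3 p45-/- arrays. For the adult probe A_52_P213909 they were Cldn19, Prr30, Gnat2, Sstr4 and Xlr, with r from 0.99 to 0.9926. Cldn19 was well above background on 1 of 3 WT arrays. Prr30 and Sstr4 were dim too, with unscaled signals of 16.9 to 33.9 and 31.1 to 52.2, and Xlr was brighter, at 345 to 662. Scaled, Xlr read 1.49, 0.70 and -0.44 in p45-/- and 0.25, -0.38 and -0.74 in WT, highest on the replicate 1 arrays. Its unscaled signal was 380, 662 and 434 in p45-/- and 403, 449 and 345 in WT, highest on the replicate 2 arrays. The Hbb-y probe and A_52_P213909 correlated at r = -0.05, so no gene could follow both this closely. With 6 arrays such values are descriptions of these arrays.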

How the data were processed

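Amplified, Cy3-labelled RNA (per the labels' protocols) was read on single-colour Agilent arrays. The deposited values are spot intensities from Agilent Feature Extraction 10.7.3.1 per the file headers (10.1 per the submitters' processing notes). They are the processed-signal column; its background step is not given in the sources used here. Control spots were left out, outlier spots set to missing and spots of a probe averaged as log2. Each array's 75th percentile was subtracted. Probes well above background on all arrays of a group were kept, 23958 of 41174. Accessions were named through a RefSeq gene table (GRCm38.p6, names and order only; the array design is of another build), which gave 26682 probes a symbol.

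Groups were compared per probe with two-sided limma 3.58.1 in R 4.3.3, adjusted by Benjamini-Hochberg over all probes kept and a threshold of 0.05, tested on simulated data. Ratios used exact permutation tests. The labels do not say that cultures came from separate animals, so p-values measure the spread between these samples. The number of arrays limits the precision. Deviations from the group means correlated at 0.64, 0.57 and 0.30 for numbers 1, 2 and 3, above the limit of 0.1, although p45-/- 3 correlated more with WT 2, at 0.59, than with WT 3, so same-numbered arrays were treated as pairs in the block, on evidence from the data and not from the labels. For the ratios Hbb-b1, or else Hbb-b2, had been planned; neither matched a probe, and Hbb-bt was used. Named by rule were all member probes, Nfe2, the 8 regulators and 2 genes of each other list with the smallest unadjusted p, and the 5 genes closest to Hbb-y and to the adult beta probe. 1 gene that the rule names is not reported here. Hbq1a, Hbq1b, Mb, Cygb, Ermap, Alas2 and Bcl11a were named outside it, after their values were seen. Members and lists were chosen with earlier results of these data known. Alternatives were other scalings, normexp (offset 50, on median spot signals), blocks, filters, probe rules and left-out arrays.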

Additional observations from a re-analysis of the deposited data

How the results depend on the processing

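Hbb-bh1 and Hbb-y were higher in p45-/- under each alternative tried. The count of probes called, 0 without a block, was 73 with the replicate block, 21 with replicate 1 left out of both groups, 13 with median scaling, 519 with array weights and 2 without scaling, which was added after seeing the data, and 0 to 1 when leaving out each array. The 2 Hbb-bh1 probes passed the threshold with array weights only, and the replicate block changed no globin call. Other sign changes were in small differences. Hba-x was -0.34 with median scaling, -0.11 with array weights and -0.43 without scaling, and -0.36 to 0.79 leaving out each array. Without scaling Hba-a1 was -0.044, and Hbb-bt was -0.0113 on A_51_P374476 and -0.0305 on A_52_P260346. Leaving out each array gave -0.45 to 1.26 for Hba-a1, -0.31 to 1.38 for A_51_P374476 and -0.35 to 1.40 for A_52_P260346. The ratio of Hba-x to Hba-a1 ran from -1.52 to 1.07 on that basis, of Hbb-bh1 to Hbb-bt from 1.37 to 3.38 and of Hbb-y to Hbb-bt from 0.29 to 2.54. The cause of these changes was not tested. Slide 1 held 1 array per group, and within slide 2 the difference of Hbb-bh1 was 3.09 and 3.12.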
